A study of Mus musculus with 7 samples.

Results

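The spindle assembly checkpoint holds a dividing cell in metaphase until every chromosome is attached to the spindle, and Mad2l1 encodes Mad2, the protein that carries the checkpoint signal. Mad2l1 and 9 partners were followed here: Mad2l2, Mad1l1, Mad2l1bp, Bub1, Bub1b, Bub3, Ttk, Cdc20 and Trip13. They are 10 of the 48321 genes in the deposited count tables, found by symbol. The set was chosen from the measured difference between the estradiol benzoate (EB) and vehicle mice, because Mad2l1 stood out in it. The members' own changes are therefore a description and carry no test.

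RNA was sequenced from the hand-dissected ventrolateral division of the ventromedial hypothalamic nucleus (VMHvl), a group of estrogen-sensitive neurons, of 7 ovariectomized female mice. Each library came from 1 mouse. Tissue was taken 4 h after 3 mice received vehicle and 4 mice 1 µg of EB, an ester that releases estradiol, under the skin. All 7 mice share a mixed background with 129/Sv ancestry, from a line with a floxed Esr1 allele. The labels name no Cre and give no age, and the mice are numbered within their group only to name them.

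At an unattached kinetochore, the kinase Ttk (Mps1) and the Bub1 and Bub3 proteins recruit Mad1l1 (Mad1), which binds Mad2l1 and turns it to its closed form. Closed Mad2l1, Bub1b (BubR1) and Bub3 then bind Cdc20, the activator of the anaphase-promoting complex (APC/C), and block it. Mad2l1bp (p31comet) and the ATPase Trip13 pull Mad2l1 off that complex and return it to its open form. Mad2l2 (Rev7) is a relative of Mad2l1 with the same HORMA fold that works mostly in DNA repair. Most cells of the adult hypothalamus are neurons and glia that do not divide, and outside mitosis Mad2l1 has also been linked to the uptake of the insulin receptor.

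Library totals ran from 21037303 to 33302293 counts. The pituitary genes Cga and Tshb were highest in EB 4, at 18.4 and 9.14 CPM against at most 6.14 and 6.39 in the other mice. In the other EB mice they were below every vehicle mouse. Cga had 0.126 to 0.585 CPM there against 2.31 to 6.14 in the vehicle mice, and Tshb 2.42 to 3.39 against 5.23 to 6.39. The part of these pituitary differences in the results was not tested, and the Mad2l1 difference is given without EB 4 as well. Markers of the VMHvl were present in every library: Esr1, the estrogen receptor, ran from 159.5 to 317 CPM, and Slc17a6, the glutamate transporter of its neurons, from 434 to 715 CPM. Nr5a1, a defining gene of the nucleus, was low, at 0.927 to 3.51 CPM. All levels are counts relative to library size (CPM), scaled between libraries by TMM. In bulk tissue, more cells of a kind and more RNA per cell cannot be told apart.

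Mad2l1 was several-fold higher in every EB mouse than in any vehicle mouse. It lies on chr6:66535390-66547220 on the plus strand (GRCm38, the build also called mm10), and no other gene overlaps it in GENCODE. The vehicle mice had 292, 316 and 145 counts, or 11.4, 10.01 and 6.39 CPM. The EB mice had 2567, 1788, 1523 and 1984 counts, or 83.9, 55.1, 64.2 and 81.7 CPM. The groups were thus far apart, and within the EB group EB 2 and EB 3 were the lower mice and EB 1 and EB 4 the higher.

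Mean Mad2l1 went from 9.25 ± 2.57 CPM (SD, n = 3) to 71.2 ± 13.9 CPM (SD, n = 4). The fitted log2 difference was 2.94 ± 0.21 (SE; 95% interval 2.47 to 3.40), a ratio of 7.66. Counting error was small beside the spread between mice: the exact 95% Poisson interval of the lowest library, vehicle 3, was 5.39 to 7.51 CPM. By size of log2 difference, Mad2l1 stood 7th among the genes called higher and 16th among all genes tested. Leaving out EB 4 gave 2.87, and leaving out vehicle 1, which by chi-square over genes differed most from the other vehicle mice, gave 3.10.

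**Figure D1:**
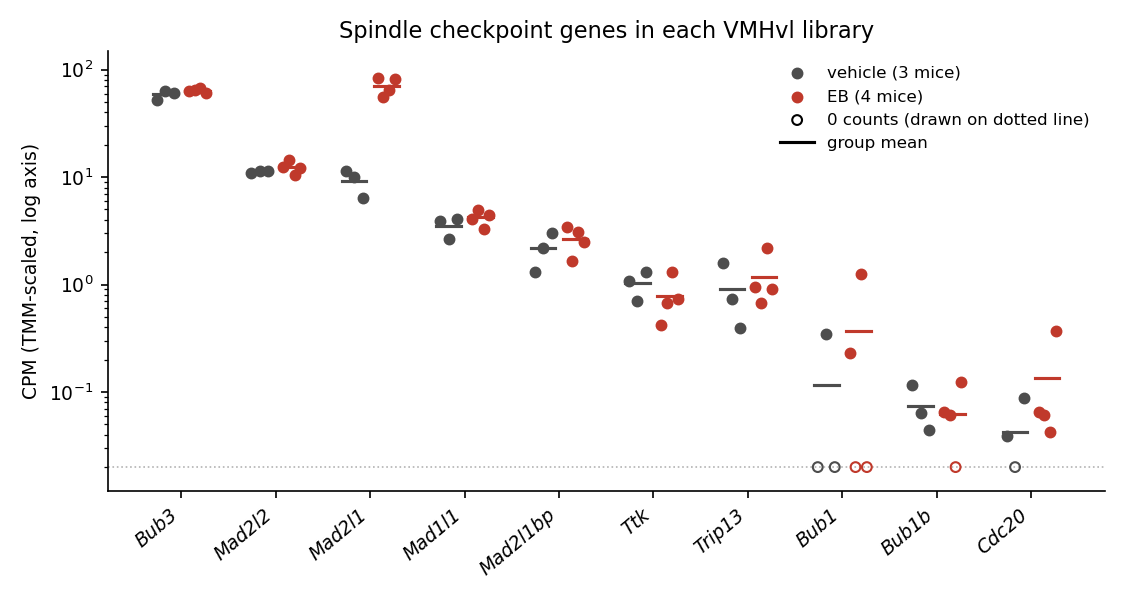
CPM of the 10 spindle checkpoint genes in each library (log axis), with vehicle mice in grey, EB mice in red, bars at group means and open circles for libraries with 0 counts. Mad2l1 separates the groups, at 6.39 to 11.4 CPM against 55.1 to 83.9, while the points of each of the other 9 genes overlap.

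The 250 bases before the RefSeq start of Mad2l1 (GRCm38.p6) are shown, with those of Ttk, a partner whose groups overlapped, and of Gadd45a, a gene whose level followed that of Mad2l1 (described further on). Each is written on its gene's own strand. Capitals mark GGTCA, the core of the half-site bound by estrogen receptors, on either strand.
Mad2l1, chr6:66534971-66535220, plus strand: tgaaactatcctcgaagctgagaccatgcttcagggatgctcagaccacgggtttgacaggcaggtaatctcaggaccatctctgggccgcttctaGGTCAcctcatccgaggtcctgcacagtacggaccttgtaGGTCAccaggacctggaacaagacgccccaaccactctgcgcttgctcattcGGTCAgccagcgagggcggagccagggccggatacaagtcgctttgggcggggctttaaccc
Ttk, chr9:83834439-83834688, plus strand: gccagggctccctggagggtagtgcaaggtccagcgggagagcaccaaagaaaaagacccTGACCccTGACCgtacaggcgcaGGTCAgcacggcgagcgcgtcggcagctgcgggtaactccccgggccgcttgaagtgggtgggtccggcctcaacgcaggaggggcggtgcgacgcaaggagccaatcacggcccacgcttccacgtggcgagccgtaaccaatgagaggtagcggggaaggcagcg
Gadd45a, chr6:67037408-67037657, minus strand: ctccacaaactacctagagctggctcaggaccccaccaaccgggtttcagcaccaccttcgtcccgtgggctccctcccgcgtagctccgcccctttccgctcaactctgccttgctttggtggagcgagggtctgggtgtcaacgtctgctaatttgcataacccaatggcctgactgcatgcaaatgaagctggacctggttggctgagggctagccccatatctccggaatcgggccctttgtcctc

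The Mad2l1 window held GGTCA 3 times, all on its own strand, from 154, 114 and 62 bases before the start. The first and second of these were AGGTCA, the 6-base nuclear receptor half-site, which contains GGTCA. The distances are from the RefSeq start. In GENCODE Mad2l1 starts at chr6:66535390, beyond the end of the window at 66535220, and from there each match lies further upstream. At least 3 GGTCA matches on both strands together were found in 1.51% of 32851 RefSeq promoter windows of this length, and at least 2 AGGTCA in 1.36%. The full estrogen response element (GGTCA and TGACC with any 3 bases between them) was absent from the Mad2l1 window and present in 0.0639% of all windows. Ttk also held 3 GGTCA matches, of which 1 was AGGTCA, and Gadd45a held none. These 3 windows were picked for their genes, and the part of such matches in the Mad2l1 difference was not tested.

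All 10 members matched a RefSeq window. Among the other members, Bub3, Mad1l1 and Trip13 had 1 GGTCA in a window, and Mad2l2, Mad2l1bp, Bub1, Bub1b and Cdc20 had none. The CCAAT box, common before genes of mitosis and found in 33.9% of all windows on either strand, was present for Mad2l2, Bub1, Bub1b, Bub3, Ttk and Cdc20 and not for Mad2l1. TTTGAA, the core of the CHR element of late cell-cycle genes (16.0% of windows), was present for Bub3 and Cdc20. The Mad2l1 window had 2 copies of GGGCGG, the GC box, which 32.7% of windows hold at least once. A match of letters is a description of the window, not a site of binding.

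Of the proteins that join Mad2l1 in the mitotic checkpoint complex, only Bub3 RNA was abundant. Bub3 (chr7:131560222-131571895, plus strand) had 52.5, 63.4 and 60.6 CPM in the vehicle mice and 63.2, 64.6, 66.9 and 61.1 CPM in the EB mice. The groups overlapped, and the log2 difference was 0.12 ± 0.08 (SE; 95% interval -0.06 to 0.30). In GENCODE part of it overlaps the gene Fgfr2 on the other strand, and the sources used here do not say whether strand was counted.

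Bub1b and Cdc20 were close to the limit of detection. Bub1b (chr2:118598211-118641591, plus strand) had 3, 2 and 1 counts in the vehicle mice and 2, 2, 0 and 3 in the EB mice. Cdc20 (chr4:118432901-118437352, minus strand) had 1, 0 and 2 counts against 2, 2, 1 and 9. A count of 0 allows up to 3 counts, a one-sided limit that is lower than the upper end of the two-sided interval, and this is 0.126 CPM in EB 3, where Bub1b had none, and 0.0950 CPM in vehicle 2, where Cdc20 had none. Apart from EB 4, with 9 counts of Cdc20 (0.370 CPM, exact 95% Poisson interval 0.169 to 0.703), neither gene went above 3 counts in any library. Part of Cdc20 overlaps the gene Elovl1 on the other strand. Bub1b and Cdc20 stayed out of the fit, because a low-count filter (at least about 10 counts in enough libraries) removed them.

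Among the genes that recruit and activate Mad2l1 at the kinetochore, Mad1l1 (chr5:140008689-140321552, minus strand) had 3.89, 2.66 and 4.05 CPM in the vehicle mice. The EB mice had 4.08, 4.99, 3.29 and 4.49 CPM. The groups overlapped, with a log2 difference of 0.26 ± 0.25 (SE; 95% interval -0.28 to 0.80). The binding partner of Mad2l1 was thus measured at similar levels in both groups, although the interval allows a difference of more than 1.5-fold.

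Ttk (chr9:83834689-83872389, plus strand) had 1.09, 0.697 and 1.32 CPM in the vehicle mice and 0.425, 0.678, 1.31 and 0.741 CPM in the EB mice. These are only 13 to 31 counts a library, and the log2 difference of -0.40 ± 0.52 (SE) has a 95% interval from -1.51 to 0.72. Bub1 (chr2:127801122-127831865, minus strand) was uneven: 0, 11 and 0 counts in the vehicle mice and 7, 0, 30 and 0 in the EB mice. Its 30 counts in EB 3 came to 1.26 CPM, while 4 libraries, from both groups, had none. Bub1 did not pass the filter.

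The genes that take Mad2l1 back off its complex did not separate the groups either. Mad2l1bp (chr17:46147387-46153553, minus strand) had 1.32, 2.19 and 3.04 CPM against 3.43, 1.66, 3.08 and 2.51 CPM, a log2 difference of 0.29 ± 0.36 (SE; 95% interval -0.48 to 1.07). Trip13 (chr13:73911347-73937784, minus strand) had 1.59, 0.728 and 0.396 CPM against 0.947, 0.678, 2.19 and 0.905 CPM. Its log2 difference was 0.37 ± 0.57 (SE; 95% interval -0.87 to 1.61) and turned to -0.11 without EB 3, the mouse with the most Trip13, and came to 1.04 without vehicle 1, the vehicle mouse with the most.

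Mad2l2, the HORMA relative of Mad2l1 (chr4:148130384-148145699, plus strand), was steady. It had 10.96, 11.4 and 11.5 CPM in the vehicle mice and 12.5, 14.4, 10.4 and 12.3 CPM in the EB mice. Its log2 difference was 0.14 ± 0.15 (SE; 95% interval -0.18 to 0.46), and the groups overlapped. Part of its span in GENCODE overlaps that of the gene Draxin on the other strand.

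A gene was called where edgeR's Benjamini-Hochberg adjusted p was under 0.05 over the 18387 genes tested. Of the 10 members, 7 were tested, 1 (Mad2l1) was called higher and 0 were called lower. Over all tested genes, 0.919% were called, 0.712% higher and 0.207% lower. DESeq2 called 1.96% of its tested genes and limma-voom 0.816%, and each called Mad2l1 alone among the members. Mad2l1 was also the sole tested member whose groups did not overlap, as held for 9.10% of all tested genes. Since the members were chosen on this contrast, nothing is read from these counts. The median log2 difference of the 7 was 0.26, against -0.01 over all tested genes.

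Per length of transcript, the order of the members changed with Mad2l1. In CPM per kb of merged exons, the vehicle medians were 8.66 for Bub3, 4.34 for Mad2l2, 1.72 for Mad2l1bp, 1.19 for Mad2l1 and 1.07 for Mad1l1. Bub3 (7.49 to 9.05) and Mad2l2 (4.18 to 4.38) did not overlap their neighbours in that order. Mad2l1bp (1.04 to 2.39), Mad2l1 (0.761 to 1.35) and Mad1l1 (0.729 to 1.11) overlapped and have no order beyond their spread. Ttk (0.142 to 0.269) and Trip13 (0.114 to 0.459) overlapped each other below them.

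In the EB mice, Mad2l1 had a median of 8.69 CPM per kb (6.56 to 9.995), second to Bub3 at 9.12 (8.72 to 9.55), and these overlapped. Mad2l1 lay above Mad2l2 (3.95 to 5.51) in every EB mouse. The per-length ratio of Mad2l1 to Bub3 was 0.181, 0.132 and 0.0879 in the vehicle mice and 1.11, 0.712, 0.8004 and 1.12 in the EB mice. That of Mad2l1 to Mad1l1, which binds it, was 1.27, 1.64 and 0.685 against 8.93, 4.80, 8.49 and 7.92. For Mad2l1 to Mad2l1bp it was 1.30, 0.694 and 0.319 against 3.71, 5.02, 3.16 and 4.93. These 3 ratios share Mad2l1, which was chosen for its difference, so their separation between the groups is no further result.

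**Figure D2:**
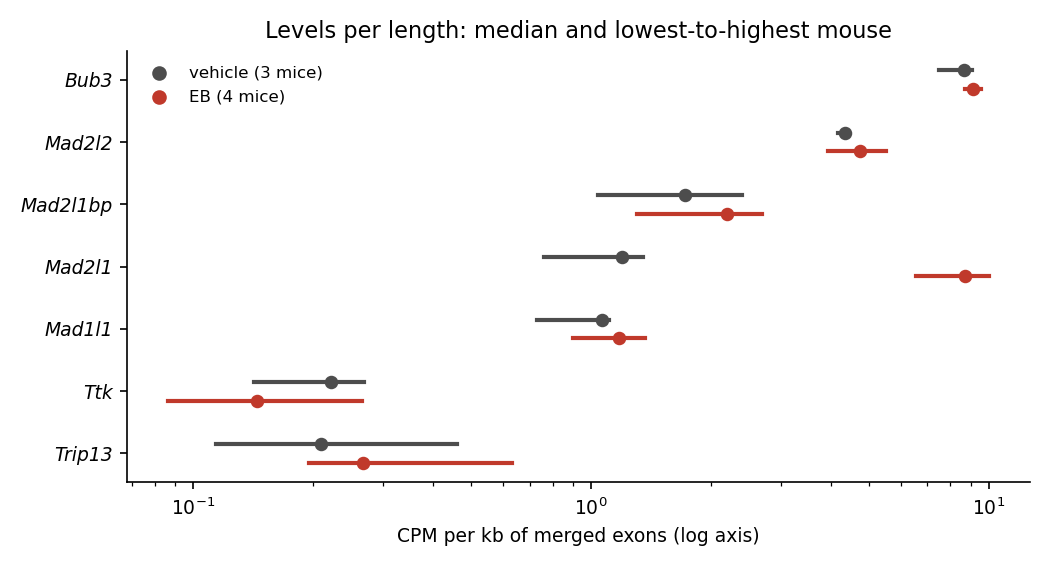
Level per length (CPM per kb of merged exons, log axis) of the 7 members that passed the low-count filter, as the median (point) and the lowest to highest mouse (line) of the 3 vehicle (grey) and 4 EB (red) mice. Mad2l1 goes from a median of 1.19, among Mad2l1bp and Mad1l1, to 8.69, beside Bub3.

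Mad2l1 made up 7.30% to 13.7% of the members' summed counts in the vehicle mice and 38.7% to 49.7% in the EB mice. The other 9 members summed to 71.5 to 81.5 CPM and 82.5 to 88.5 CPM. Those sums are mostly Bub3, whose own groups overlapped, and lay apart only by the gap from 81.5 to 82.5 CPM. No share over all genes stands beside that gap, and nothing is read from it. These shares are of reads and grow with a gene's length.

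Annotated copies of Mad2l1 sequence held few counts. At 200 or more aligned bases and 90% identity, 2 other annotated genes resemble its transcript. Of these the pseudogene Gm42430 is in the tables, with 0 to 3 counts in the vehicle mice and 2 to 13 in the EB mice, at most 0.949% of the Mad2l1 count. At 100 or more aligned bases, 219 other genes resemble some stretch of it. Apart from the 2 above, the longest match of each lies at about bases 4710 to 4854 of its longest transcript, of 7557 bases. How reads that map to several places were counted is not given in the sources used here.

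Genes with the profile of Mad2l1 were ranked by the root mean square (RMS) difference in log2 CPM over the 7 mice, each gene taken relative to its own vehicle mean. Being chosen for that likeness, they are described without a test. Nearest was Gadd45a, a p53-responsive gene of DNA damage and growth arrest, at an RMS of 0.21. It had 3.50, 2.28 and 2.33 CPM in the vehicle mice and 21.99, 15.6, 20.9 and 21.9 CPM in the EB mice, a ratio of 7.43. Both Gadd45a and Mad2l1 were lowest, among the EB mice, in EB 2. The count of Mad2l1 over that of Gadd45a ran from 2.74 to 4.39 in the vehicle mice and from 3.06 to 3.81 in the EB mice, so the ratio of the pair overlapped between groups although each gene differed several-fold.

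Next came Fam90a1b (RMS 0.35), Gpr6 (0.61), Meox2 (0.67) and Arhgef38 (0.67). Fam90a1b went from 0.680 ± 0.310 to 4.67 ± 1.13 CPM (SD). Gpr6, an orphan G-protein-coupled receptor, went from 2.18 ± 1.01 to 17.8 ± 3.46 CPM (SD) and, unlike Mad2l1, was highest of the vehicle mice in vehicle 3. Arhgef38 had 8, 3 and 8 counts against 61, 60, 34 and 63. Meox2, a homeobox gene, had 1, 2 and 2 counts against 22, 14, 11 and 7. Arhgef38 and Meox2 passed the low-count filter through the EB mice. None of the 5 is a spindle checkpoint gene.

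**Figure D3:**
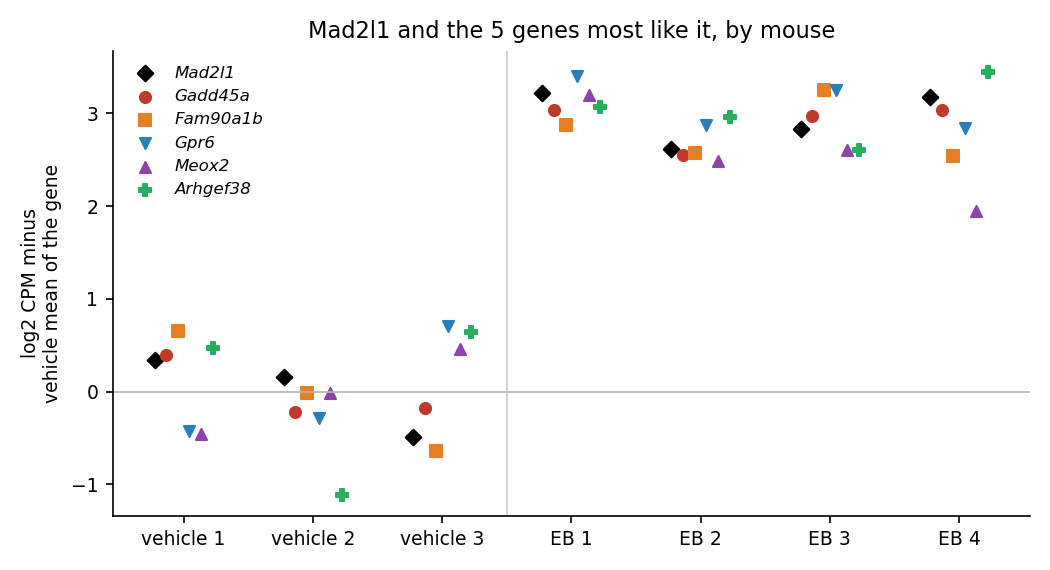
Log2 CPM of Mad2l1 and the 5 genes most like it in each of the 7 mice, relative to each gene's own vehicle mean (0). Gadd45a lies nearest to Mad2l1, with an RMS difference of 0.21, and every EB point of the 6 genes lies above every vehicle point.

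Gadd45a is also a neighbour of Mad2l1 on the chromosome: it lies at chr6:67035096-67037457 on the minus strand, 488 kb beyond the end of Mad2l1. The 3 nearest tested genes on each side of Mad2l1 do not include it, and the span was widened to 1 Mb after its place was seen. Of 51 genes of the tables within 1 Mb, 14 were tested, and Gadd45a, already chosen for its likeness to Mad2l1, was the sole one called. Gng12, a G-protein gamma subunit that starts 349 kb beyond Mad2l1 and ends before Gadd45a, had 125, 107 and 113 CPM against 150, 121, 138 and 137. Its log2 difference was 0.24 ± 0.08 (SE), with a 95% interval of 0.06 to 0.43, and the groups overlapped. By edgeR its unadjusted p was 0.0130 and its adjusted p 0.344. Most other genes between Mad2l1 and Gadd45a had few counts: none of the 12 untested genes from Mad2l1 to Gng12, of which 8 are vomeronasal receptor genes or pseudogenes of this family, went above 6 counts in a library.

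On the side before Mad2l1, where distances are negative, Ndnf (-823 kb) had a log2 difference of -0.24 ± 0.20 (SE), and the pseudogene Gm31520 (-251 kb) had 0.78 ± 0.58. On the far side, the pseudogene Gm9794 (328 kb) had 0.00 ± 0.11 and the transcript 4930597O21Rik (347 kb) had -1.10 ± 1.58. None of these 4 was called by edgeR. E230016M11Rik, a transcript that overlaps Gadd45a on the other strand, had 0.27 ± 0.29 (SE), and Serbp1 (691 kb) had 0.04 ± 0.05.

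The nearest gene of all, Vmn1r32, a vomeronasal receptor, ends 4.96 kb beyond Mad2l1 on the opposite strand. It had 2, 1 and 0 counts in the vehicle mice and 33, 24, 15 and 5 counts in the EB mice, so the groups did not overlap. The pooled counts of 3 and 77 give a ratio per depth of 18.5, with an exact 95% interval of 6.09 to 91.6 for counting error only. That interval leaves out the spread between mice. Vmn1r32 passed the low-count filter through the EB mice and was not tested without EB 1, EB 2 or EB 3. Its lack of overlap and its p values are therefore a description. Vmn1r32 did not pass edgeR's test (adjusted p = 0.0997) and passed DESeq2's (adjusted p = 0.0243). In the settings that tested it, edgeR and limma-voom gave adjusted p values from 0.0519 to 0.310. Whether its reads come from beyond the annotated end of Mad2l1 was not tested.

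Other called genes also lay in close pairs. Of 165 called genes with a position, 43 (26.1%) had another called gene within 1 Mb, as did 13.7% of 17712 tested genes with a position. No test was made of that difference. The called genes formed 28 pairs, of which 25 were higher together, 0 lower together and 3 in opposite directions, where 131 of all calls were higher and 38 lower. The pairs include overlapping or adjoining transcripts, such as Srrm4 and Srrm4os (gap 0 kb) and Gm16485 and Pgr (3.18 kb). In 2 pairs both genes differed by 4-fold or more: Mad2l1 with Gadd45a, and Gm5970 with Iigp1. Mad2l1 was chosen for its difference and Gadd45a for its likeness to it, so nothing is read from their place here.

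**Figure D4:**
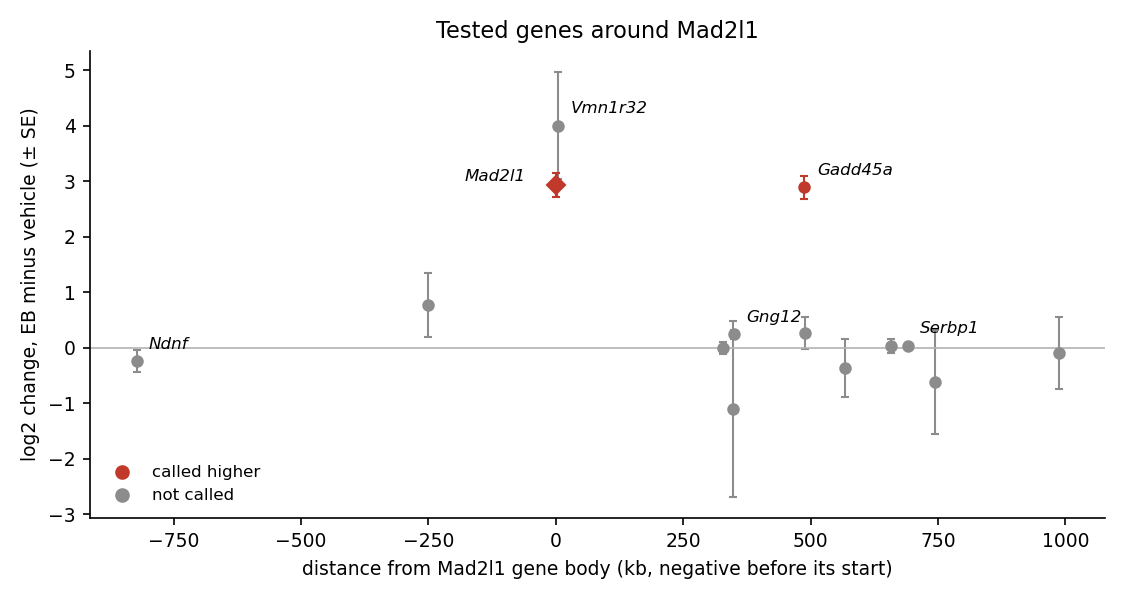
Log2 difference between EB and vehicle mice (± SE) of 13 of the 14 tested genes within 1 Mb of Mad2l1 (diamond), by distance in kb from its gene body. Gadd45a, 488 kb away, sits at the level of Mad2l1, and Vmn1r32 rests on few counts and has a wide error. Gng12 lies at 0.24 and Serbp1 at 0.04.

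The wider machinery in which Mad2l1 works was taken from lists of related genes. Of 24 genes of the kinetochore that host or silence the checkpoint, 20 were tested and 0 were called by edgeR, with 3 at an unadjusted p under 0.05, 1 called by DESeq2 and 0 by limma-voom. An unadjusted p under 0.05 was found for 8.54% of all 18387 tested genes, against which this and the counts of the following lists are to be read. The list's median log2 difference was 0.08. The exception under DESeq2 was Spdl1 (Spindly), the adaptor by which dynein strips Mad1l1 and Mad2l1 from attached kinetochores. Spdl1 had 0.816, 1.30 and 0.572 CPM in the vehicle mice and 3.53, 2.74, 1.73 and 3.75 CPM in the EB mice. Its groups did not overlap, and its log2 difference was 1.69 ± 0.40 (SE; adjusted p = 0.0923 by edgeR, 0.00525 by DESeq2). Without vehicle 2 edgeR also called it, at an adjusted p of 0.0496, and over edgeR's and limma-voom's alternatives its adjusted p ran from 0.0295 to 0.3003.

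Other genes of that list gave no call. Of the 20 tested, 16 had positive differences and 4 negative ones, against 8889 and 9498 of all tested genes. No test was made of these counts. Kntc1, part of the complex that carries Spdl1, had a log2 difference of -0.72 ± 0.29 (SE; adjusted p = 0.472, edgeR). Plk1 had 1.10 ± 0.47 (SE; adjusted p = 0.540, edgeR). Both had an unadjusted p under 0.05, and neither overlapped between groups, as held for 9.10% of all tested genes. Aurkb did not pass the low-count filter, with 0 counts in each vehicle mouse and 17, 4, 12 and 4 in the EB mice. Tpr, a nuclear pore protein that anchors Mad1l1 and Mad2l1 in interphase and was the most abundant of the list, had 537 ± 21.7 CPM against 562 ± 15.7 CPM (SD).

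Of 25 genes of the APC/C and its substrates, 22 were tested and 0 were called by edgeR, DESeq2 or limma-voom, with 2 at an unadjusted p under 0.05 by edgeR and a median of -0.04. Those were the APC/C subunits Anapc7, with a log2 difference of 0.45 ± 0.13 (SE; adjusted p = 0.204, edgeR), and Cdc27, with 0.21 ± 0.06 (SE; adjusted p = 0.216). Cdk1 and Ccnb1, the kinase and cyclin that drive mitosis, were not tested, with at most 10 and 4 counts in any library.

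Of 14 HORMA-domain genes and partners of Mad2l2, 13 were in the tables, 11 were tested and 0 were called by any of the 3 tools, with 1 at an unadjusted p under 0.05 by edgeR and a median of 0.08. That was Rev1, the scaffold of translesion synthesis, with a log2 difference of 0.27 ± 0.11 (SE; adjusted p = 0.489, edgeR). Rev3l, the polymerase that Mad2l2 serves, had 0.13 ± 0.06 (SE; adjusted p = 0.600).

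Of 34 proliferation markers, 33 were tested and 0 were called by any of the 3 tools, with 4 at an unadjusted p under 0.05 by edgeR and a median of 0.11. Their summed level ran from 146 to 170 CPM in the vehicle mice and from 152 to 168 CPM in the EB mice, so the range of the EB mice lay inside that of the vehicle mice. That sum is carried by the more abundant markers, such as Smc2 (mean 26.7 CPM in the vehicle mice). Rare markers, such as Top2a (mean 0.917 CPM in the vehicle mice), hardly move it. Mki67, the usual marker of cycling cells, had 1.21, 2.502 and 3.65 CPM against 3.43, 2.71, 2.27 and 2.14 CPM. The smallest p was that of Rrm2, a subunit of ribonucleotide reductase, at 0.661, 0.665 and 0.528 CPM against 1.503, 1.45, 1.26 and 2.39 CPM. Its log2 difference was 1.40 ± 0.43 (SE; adjusted p = 0.238, edgeR). Tpx2, a spindle factor, had -0.67 ± 0.29 (SE; adjusted p = 0.547), and Smc2, a condensin subunit and the most abundant, had -0.18 ± 0.11.

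Of 19 transcription regulators of the cell cycle, a list also chosen with earlier results known, 18 were tested. By edgeR 1 was called higher and 0 lower, against 0.712% and 0.207% of all tested genes. There were 2 at an unadjusted p under 0.05, and the median was -0.04. The called gene was E2f6, a repressor of the E2F family, with 37.9, 29.3 and 32.5 CPM in the vehicle mice and 54.7, 45.3, 51.8 and 54.7 CPM in the EB mice. It rose by a log2 of 0.63 ± 0.11 (SE; adjusted p = 0.0114, edgeR). The call was lost without vehicle 3 (adjusted p = 0.0805) and without EB 1 (adjusted p = 0.0549). E2f6 lies 10.1 kb from Greb1, which was also called higher (log2 1.45, edgeR), and whether they share reads was not tested. Foxm1, also at an unadjusted p under 0.05, had -0.87 ± 0.38 (SE; adjusted p = 0.552, edgeR), and its groups did not overlap. Tfdp2, the most abundant of the list and a dimer partner of E2F proteins, had 0.15 ± 0.10 (SE).

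Of 10 genes of insulin receptor signalling and uptake, all were tested, 1 was called higher and 0 lower, with a median of -0.03. Over all tested genes 0.712% were called higher. This list was chosen with earlier results of these data known, so nothing about Mad2l1 is read from its call. Irs2, an adaptor of the insulin receptor, went from 136, 141 and 143 CPM to 326, 286, 318 and 327 CPM, and rose by a log2 of 1.16 ± 0.07 (SE; adjusted p = 1.91e-06, edgeR). Ap2b1, a subunit of the clathrin adaptor AP2 and the most abundant of the list, had -0.05 ± 0.08 (SE).

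**Figure D5:**
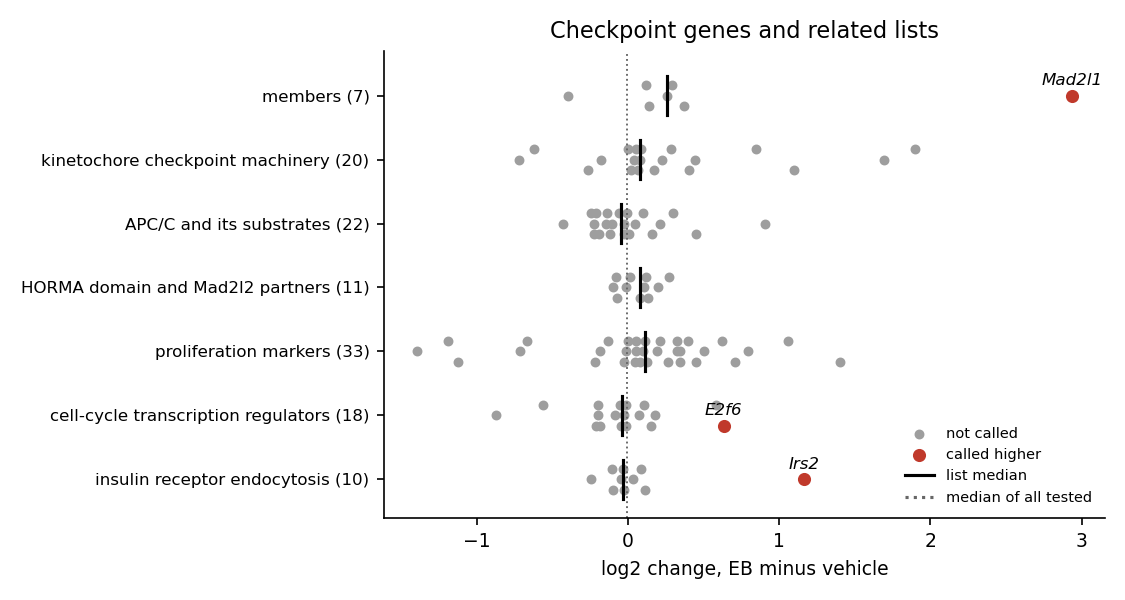
Log2 difference between EB and vehicle mice of each tested gene in the members' list and 6 related lists, with the number tested in brackets, calls by edgeR in red, the list median as a black bar and the median of all tested genes as a dotted line. Mad2l1, E2f6 and Irs2 are the called genes.

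Markers of other cells were set beside Mad2l1. Of 8 markers of oligodendrocyte precursors, the main dividing cells of adult brain, 0 were called by any of the 3 tools, with 0 at an unadjusted p under 0.05 by edgeR. Their sum ran from 197 to 212 CPM in the vehicle mice and 171 to 209 CPM in the EB mice. Pdgfra, their defining receptor, had 82.0 ± 6.14 against 78.3 ± 8.21 CPM (SD). Of 10 markers of neurons and astrocytes, 0 were called by any of the 3 tools, with 0 at an unadjusted p under 0.05 by edgeR, and Map2, of neurons, had a log2 difference of -0.01 ± 0.05 (SE).

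Most blood vessel and microglial markers had lower values in the EB mice, without a call by edgeR or limma-voom. Negative differences were found for 9498 of all 18387 tested genes. Of 9 endothelial markers, 7 had negative differences, and Kdr and Pecam1 had positive ones (log2 0.48 and 0.05). At an unadjusted p under 0.05 by edgeR, 4 were lower (Flt1, Tek, Slco1a4 and Abcb1a) and 1 higher (Kdr), and DESeq2 called 2 lower, Flt1 and Abcb1a. Their sum ran from 106 to 154 CPM against 90.7 to 119 CPM. Of 9 microglial markers, 7 had negative differences and 1 an unadjusted p under 0.05, P2ry12, which DESeq2 called lower, and the sums were 164 to 174 against 145 to 161 CPM. The part of these differences in that of Mad2l1 was not tested.

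Of 9 markers of tanycytes and ependyma, 7 were tested and 0 were called by any of the 3 tools, with 0 at an unadjusted p under 0.05 by edgeR. Their sum ran from 47.1 to 124 CPM against 50.9 to 116 CPM. Of 9 pituitary markers, 4 were tested and 0 were called by any of the 3 tools, with 0 at an unadjusted p under 0.05 by edgeR. Their sum ran from 8.77 to 15.3 CPM against 3.04 to 30.04 CPM, the highest in EB 4. Of 10 markers of VMHvl neurons, 3 were called higher and 0 lower by edgeR, and 5 had negative differences. With 6 at an unadjusted p under 0.05 by edgeR, DESeq2 called 4 higher, the same 3 and Slc17a6, and 0 lower. Rprm had 58.9, 98.9 and 52.1 CPM against 41.6, 38.7, 45.9 and 41.8 CPM, without overlap, and a log2 difference of -0.74 ± 0.19 (SE; adjusted p = 0.186, edgeR). Adcyap1 had -0.24 ± 0.10 (SE; adjusted p = 0.468). The progesterone receptor Pgr, a textbook estrogen target, rose by a log2 of 1.34 ± 0.08 (SE; adjusted p = 3.4e-06, edgeR). Nptx2 and Cckar rose by 1.17 ± 0.16 and 1.40 ± 0.26 (SE; adjusted p = 0.00234 and 0.0237, edgeR). The Cckar call was lost on leaving out vehicle 1, vehicle 3, EB 1, EB 3 or EB 4, with adjusted p from 0.0532 to 0.153. Among the VMHvl genes called, the ratio was at most 2.64, that of Cckar. Mad2l1, at 7.66, was chosen for its difference, and this list with earlier results known, so no ranking is read from these ratios.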

How the data were processed

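The deposited tables hold whole-number counts of reads per gene in 7 libraries, not normalized by the authors. Per the submitters' processing notes, HISAT2, HTSeq and DESeq2 were used with mm10. How strand and multiply mapped reads were treated, and with which annotation and versions, was not given in the sources used here. Libraries were made from 15 ng of RNA, per the labels' protocols.

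Genes were kept by filterByExpr (minimum count 10; 18387 of 31222 genes with any count), then TMM-scaled and compared by edgeR 4.0.16 (quasi-likelihood, robust, R 4.3.3), with Benjamini-Hochberg adjustment. DESeq2 1.42.0, limma-voom (limma 3.58.1), other scalings and filters and leaving out each library were alternatives. The biological coefficient of variation was 22.3%. Replicate libraries differed beyond sampling noise (chi-square per degree of freedom 17.0 to 166).

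Positions and lengths are from GENCODE vM21, promoters from RefSeq. Transcripts were compared with blastn 2.17.0. Named were the 10 members, the 5 genes most like Mad2l1 (predicted models left out), the 3 nearest tested genes on each side, and from each list up to 4 called genes (otherwise the 2 of smallest p) and the most abundant. The members and lists were chosen with earlier results of these data known. Genes named beyond the rule (such as Mki67, Cdk1, Ccnb1, Plk1, Aurkb, Top2a, Foxm1, Greb1, Esr1, Nr5a1, Gng12, Kdr and Rprm) were chosen after their values were seen. Of the tested genes near Mad2l1, 1 is not reported here.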

Additional observations from a re-analysis of the deposited data

Results flagged for a closer look

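In 5 of 54 sets of values from the 4 EB mice, 1 mouse stood apart from the other 3 by Dixon's test, which chance gives in about 1 of 20 sets. Cdc20 was at 0.370 CPM in EB 4 against 0.0421 to 0.0653 in the others. Gadd45a was at 15.6 CPM in EB 2 against 20.9 to 21.99. Abcb1a, of the blood-brain barrier, was at 18.2 CPM in EB 4 against 11.4 to 11.8. The pituitary hormone genes Tshb and Cga were at 9.14 and 18.4 CPM in EB 4 against 2.42 to 3.39 and 0.126 to 0.585.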

How the results depend on the processing

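Over 15 alternatives the Mad2l1 log2 difference ran from 2.74 to 3.10. In each alternative 1 member was called higher and 0 lower, a count from the contrast that chose the members. The calls in the 6 related lists, 2 in the edgeR fit reported, ran from 1 to 3 when libraries were left out: 1 without vehicle 3 or EB 1, where E2f6 was lost, and 3 without vehicle 2, with Spdl1. Cckar was called in 10 of 15. Over all genes, 131 higher and 38 lower calls became 72 and 22 without vehicle 3, 84 and 19 without EB 1, 232 and 119 by DESeq2, 166 and 62 with no low-count filter, and 107 and 17 with library totals alone, where the median of all genes moved to 0.03. Their causes were not tested. By longest transcript in place of merged exons, Mad2l1 had 1.32 CPM per kb in the vehicle mice and 9.65 in the EB mice, and its place moved from 5th to 2nd. No paired analysis was possible because mice carry no number that is shared across groups in the labels. Low counts leave Bub1b and Cdc20 near the limit of detection, while Bub1 and Trip13 also differed between mice of a group beyond counting error.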
